A study of Mus musculus with 44 samples.

Results

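Matricellular proteins are secreted into the extracellular matrix, where they regulate how cells attach, move and respond to growth factors rather than serving mainly as scaffold. SPARC binds collagen and SPARC-like 1 is its closest relative. Thrombospondins bind CD36 and CD47 and can activate latent TGF-beta. Osteopontin, tenascin C and periostin signal through integrins, and fibronectin is a structural glycoprotein to which most of the others bind. In the stomach these proteins come largely from fibroblasts, smooth muscle, vessels and macrophages, and several of them rise in wounds and around tumors.

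The 8 genes described here are Sparc, Sparcl1, Thbs1, Thbs2, Spp1 (osteopontin), Tnc (tenascin C), Postn (periostin) and Fn1 (fibronectin), of 31484 genes to which the deposited transcripts could be assigned by name. They are a list of relatives in which Sparc and Thbs1 were chosen by a fall under netazepide (NTZ) in knockout mice in these same libraries. Values of the NTZ comparison in knockouts are therefore a description with no test. For Sparc and Thbs1 the same holds where KO/PEG or KO/NTZ libraries are compared with WT libraries, because those libraries entered the choice. All 8 genes passed the filter on low counts, and NTZ in WT mice is the comparison that the choice did not use.

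The mice were females of the BalbC strain, 13 months old. KO mice lacked the H+/K+ATPase beta subunit (Atp4b) in every cell from birth and therefore secrete no gastric acid, and WT mice were controls of the same strain. NTZ, earlier named YF476, blocks the gastrin receptor and was injected under the skin every other week, and control mice received the vehicle polyethylene glycol (PEG). RNA of gastric corpus was sequenced in 44 libraries, of which 11 were WT/PEG and 9 WT/NTZ, and 13 were KO/PEG and 11 KO/NTZ.

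Total counts were between 6065084 and 21945124 per library, so that 3 counts, taken as the smallest signal, corresponded to 0.137 to 0.495 CPM, the count scaled to the library's total. Atp4b had between 2139 and 5738 CPM in the WT libraries and between 2.28 and 40.6 CPM in the KO libraries, with no overlap. Parietal and chief cell genes were present in WT corpus as the tissue label requires. Over 8 parietal cell genes the summed median was 13227 CPM in WT/PEG and 4788 CPM in KO/PEG. These genes include Atp4b itself, with a mean of 3924 CPM in WT/PEG and 6.84 CPM in KO/PEG. Part of the difference between the sums was thus fixed by the knockout. Long transcripts had relatively lower counts in KO libraries. A length slope was computed as the regression of each library's log2 CPM, relative to WT/PEG, on log2 transcript length over 2524 coding genes with a single transcript. It lay between -0.232 and 0.089 in the 20 WT libraries and between -0.772 and -0.028 in the 24 KO libraries. Its median was 0.012 in WT/PEG and -0.098 in WT/NTZ libraries, against -0.419 (KO/PEG) and -0.554 (KO/NTZ). Mitochondrial transcripts made up a median of 9.57% of counts in WT/PEG and 4.86% in KO/PEG. Genotype and length slope overlapped in few libraries and can be told apart only in part. Where a fit with the slope as a covariate turned a member's direction or changed its call, this stands beside the result or in the closing sections. Transcript shares, fits of single or coding transcripts, and counts of cell type markers were not fitted with the slope.

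Per transcript length, Sparcl1 and Sparc were the most abundant members in WT corpus and Thbs2 the least. On a TPM-like scale, computed here from annotated transcript lengths, WT/PEG mice had 90.8 ± 22 (SD, n = 11) for Sparcl1, 74.5 ± 18.3 for Sparc, 43.3 ± 18.7 for Postn and 17.8 ± 4.53 for Fn1. Spp1 followed with 10.6 ± 11, Thbs1 with 4.95 ± 1.67, Tnc with 4.21 ± 1.32 and Thbs2 with 1.86 ± 0.426. Within 1 SD, Sparcl1 could not be separated from Sparc, Sparc from Postn, nor Fn1, Spp1 and Thbs1 from the next in order, whereas Postn stood above Fn1 and Tnc above Thbs2. In KO/PEG mice Sparc had 97.4 ± 33.4 (SD, n = 13) with a median of 98.9, and Spp1 98.9 ± 159 with a median of 48.2 and a single library at 582, so that the order of these genes depends on that library. In KO/NTZ mice Sparc was first with 54.1 ± 20.7 (SD, n = 11), and overlapped Sparcl1 with 43.7 ± 24.3.

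**Figure D1:**
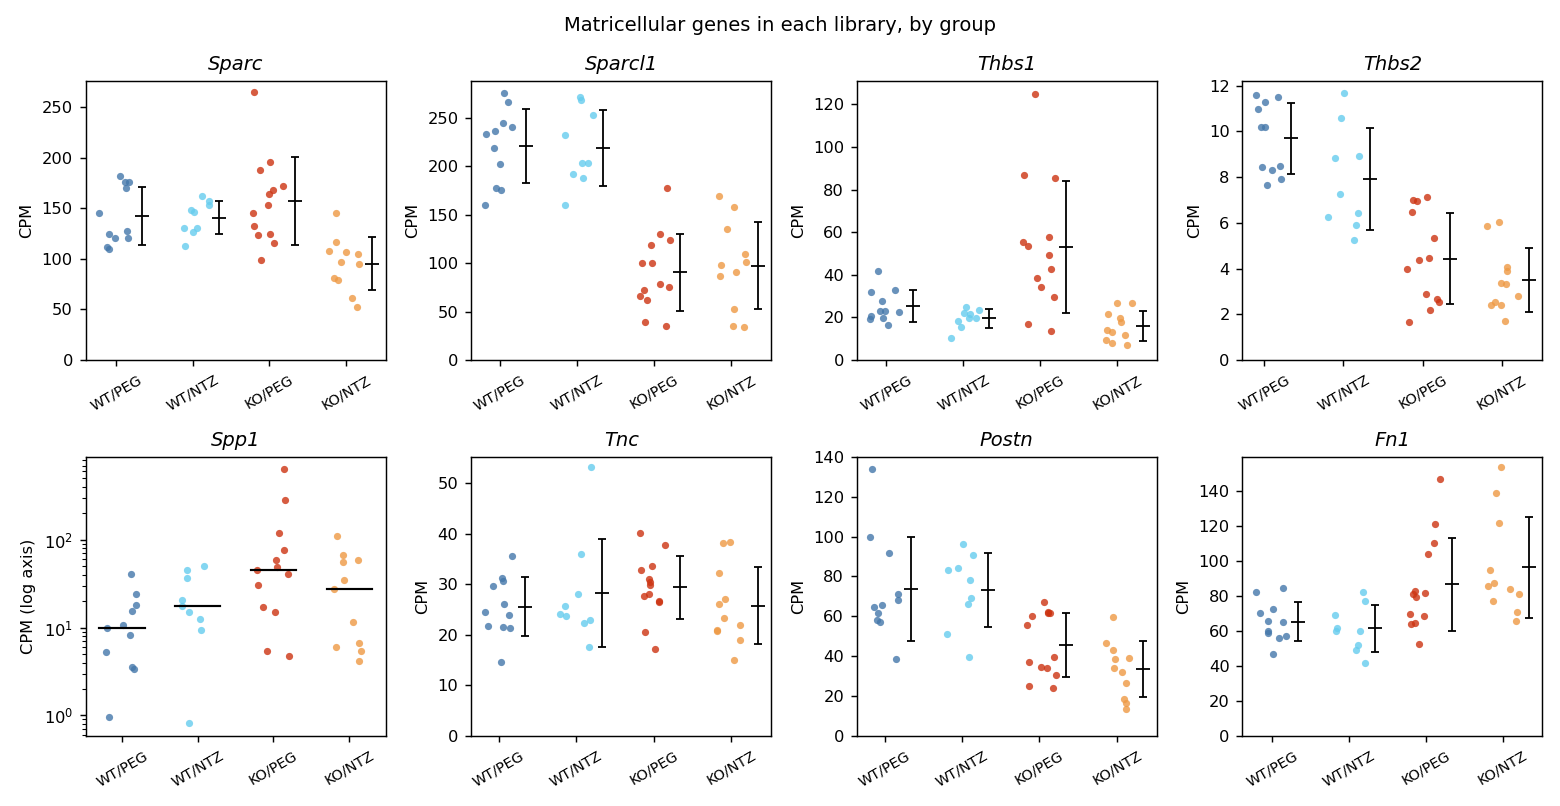
Normalized count (CPM) of the 8 genes in every library, with WT/PEG and WT/NTZ in blue and KO/PEG and KO/NTZ in red and orange. Bars are the mean ± SD, except for Spp1, which is on a log axis with the median as a line. Sparcl1 and Thbs2 are lower in both KO groups, and Thbs1 is spread from 13.7 to 125 CPM in KO/PEG only.

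In KO/PEG versus WT/PEG, 6 of the 8 members passed the threshold (quasi-likelihood test of edgeR, adjusted p under 0.05 over 14901 genes by the Benjamini-Hochberg method). This is near the background, since 74.7% of all genes tested passed, 37.5% higher and 37.2% lower. Spp1, Thbs1 and Fn1 were higher in KO/PEG and Sparcl1, Thbs2 and Postn lower, with Thbs1 counted here as a description only. The median log2 fold change of the members was 0.17. With the length slope as a covariate, where 36.2% of all genes passed, the 4 members past the threshold were Spp1, Thbs1, Fn1 and Tnc, all higher, and none of the 3 lower genes passed.

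Sparc (chr11:55394500-55423183, minus strand, GRCm38) encodes a collagen-binding protein made by fibroblasts and endothelium. WT/PEG libraries had 110 to 182 CPM (median 128.5) and WT/NTZ libraries 113 to 162 CPM (median 146). KO/PEG libraries had 98.4 to 265 CPM (median 153) and KO/NTZ libraries 52.3 to 145 CPM (median 96.9). The KO/NTZ libraries were the low group, with each of the 11 under the median of KO/PEG and 6 under all of its libraries. On the log2 scale KO/NTZ differed from KO/PEG, the comparison on which Sparc was chosen, by -0.72 ± 0.14 (SE). Sparc is made by endothelium too, and 4 of 12 endothelial markers fell and 1 rose in this comparison, beside 5.56% of all genes called. These markers had summed medians of 369 CPM in KO/PEG and 360 CPM in KO/NTZ. Their part in the level of Sparc was not tested. Against WT/PEG, KO/PEG differed by 0.14 ± 0.13 (SE), with the ranges overlapping. Of the KO/NTZ libraries, 9 of 11 were below every WT/NTZ library, and the log2 difference was -0.56 ± 0.15 (SE), or -0.25 ± 0.20 (SE) with the length slope as a covariate.

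The count of Sparc was divided between a pair of coding transcripts that differ in the length of their first exon and by 3 bases at the start of the third exon (chr11:55407277-55407279). These bases lie within the coding sequence, and the stretch is shown because the split between the transcripts changed with genotype. Capitals mark the bases that only the longer form holds, at a junction that spans chr11:55407247-55409957 on the minus strand of GRCm38.
Sparc ENSMUST00000018737: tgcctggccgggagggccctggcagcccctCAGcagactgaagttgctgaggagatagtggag
Sparc ENSMUST00000108858: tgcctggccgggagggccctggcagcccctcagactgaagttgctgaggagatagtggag
The form without these bases held 81.5% ± 3.13 (SD, n = 11) of the Sparc count in WT/PEG and 91.4% ± 4.66 (SD, n = 13) in KO/PEG. The difference of 9.92 percentage points is a description with no test, because the KO/PEG libraries entered the choice of Sparc. It held 95.2% ± 4.29 (SD, n = 11) in KO/NTZ. In WT/NTZ it held 83.5% ± 2.84 (SD, n = 9), which did not differ from WT/PEG past the threshold (exact permutation test, two-sided, adjusted p = 0.246). The longer form has 2300 bases and the shorter 2115, and the length slope moves in the same direction as this split. Its part in the split was not tested.

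Sparcl1 (chr5:104079111-104113733, minus strand) encodes SPARC-like 1, also called hevin, which is abundant in vessel walls and muscle. Levels were 160 to 276 CPM (median 233) in WT/PEG libraries and 160 to 272 CPM (median 203) in WT/NTZ libraries. The KO/PEG libraries had 35.3 to 178 CPM (median 78.3), and the KO/NTZ libraries 34.5 to 169 CPM (median 98.1). Of the 13 KO/PEG libraries, 12 were below every WT/PEG library. KO/PEG was lower than WT/PEG, with a log2 difference of -1.28 ± 0.22 (SE, adjusted p = 1.51e-06, edgeR). The remaining library, KO/PEG replicate 9 with 178 CPM, is also the KO library whose length slope, -0.028, lies within the range of WT/PEG, and the one with the largest mitochondrial share (14.5%). With the slope as a covariate the log2 difference was -0.17 ± 0.22 (SE, adjusted p = 0.594, edgeR). Genotype and the length slope cannot be told apart for this gene. Sparcl1 and smooth muscle genes were lower together in KO/PEG, where 9 of 10 smooth muscle markers fell, beside 37.2% of all genes. The sum of these markers had a median of 2018 CPM, against 4326 CPM in WT/PEG. These markers were not counted in the fit with the length slope as a covariate. In KO/NTZ that sum had a median of 4058 CPM, with 4 of 10 markers higher than in KO/PEG, beside 5.56% of all genes called. Sparcl1 in KO/NTZ differed from KO/PEG by 0.11 ± 0.21 (SE, log2). In a bulk sample fewer cells of a type and less RNA per cell cannot be told apart.

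Thbs1 (chr2:118111876-118127133, plus strand) encodes thrombospondin 1, an inhibitor of vessel growth and activator of latent TGF-beta. The WT libraries had 16.4 to 41.7 CPM with PEG (median 22.9) and 10.3 to 24.8 CPM with NTZ (median 19.8). The KO libraries had 13.7 to 125 CPM with PEG (median 49.2) and 7.24 to 26.8 CPM with NTZ (median 14.2). KO/PEG was the high and the most variable group, with 8 of 13 libraries above every WT/PEG library and 1 below all of them. The log2 difference from WT/PEG was 1.06 ± 0.25 (SE). Every KO/NTZ library was under the median of KO/PEG and 5 of 11 were under all of its libraries, and the log2 difference in this comparison, on which Thbs1 was chosen, was -1.70 ± 0.26 (SE). KO/NTZ overlapped WT/NTZ and differed from it by -0.26 ± 0.28 (SE), a direction that turned with the length slope as a covariate. Platelets carry thrombospondin 1, and the sum of 6 platelet and megakaryocyte genes had medians of 4.31 CPM in WT/PEG, 8.16 CPM in KO/PEG and 14.8 CPM in KO/NTZ. Between KO/NTZ and KO/PEG its members differed in sign, with log2 differences of 0.96 ± 0.23 (SE, adjusted p = 0.00884, edgeR) for Itga2b and -0.62 ± 0.20 (SE, adjusted p = 0.0584, edgeR) for Pf4, both named after their values were seen. The part of platelets in the level of Thbs1 was not tested.

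The labels number the animals, and numbers of 100 and above mark 11 of 11 WT/PEG and 4 of 9 WT/NTZ libraries, and 7 of 13 KO/PEG and 1 of 11 KO/NTZ libraries. What the numbers stand for is not given in the sources used here. Thbs1 in KO/PEG had a median of 57.7 CPM (29.6 to 125, n = 7) in animals numbered from 100 and 46 CPM (13.7 to 55.5, n = 6) in those below. With only KO animals numbered below 100, Thbs1 differed by 0.62 ± 0.27 (SE, log2) between KO/PEG and WT/PEG and by -1.22 ± 0.27 (SE) between KO/NTZ and KO/PEG. For Sparc it was -0.82 ± 0.18 (SE) in the latter comparison. With the length slope as a covariate, the comparison of the KO groups gave -0.66 ± 0.13 (SE) for Sparc and -1.54 ± 0.23 (SE) for Thbs1.

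Thbs2 (chr17:14665500-14694235, minus strand) encodes thrombospondin 2, a fibroblast product that also inhibits vessel growth. It was the least abundant member, with 7.66 to 11.6 CPM (median 10.2) in WT/PEG and 5.23 to 11.7 CPM (median 7.26) in WT/NTZ libraries. With PEG the KO libraries had 1.65 to 7.15 CPM (median 4.37), and with NTZ 1.72 to 6.03 CPM (median 3.32). All 13 KO/PEG libraries lay below all 11 WT/PEG libraries. The log2 difference was -1.12 ± 0.20 (SE, adjusted p = 4.86e-06, edgeR). With the length slope as a covariate it was -0.20 ± 0.24 (SE, adjusted p = 0.543, edgeR). Thbs2 was also lower in KO/NTZ than in WT/NTZ, with a log2 difference of -1.15 ± 0.23 (SE, adjusted p = 1.95e-05, edgeR), or -0.20 ± 0.25 (SE, adjusted p = 0.613, edgeR) with the slope. KO/NTZ differed from KO/PEG by -0.33 ± 0.21 (SE).

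**Figure D2:**
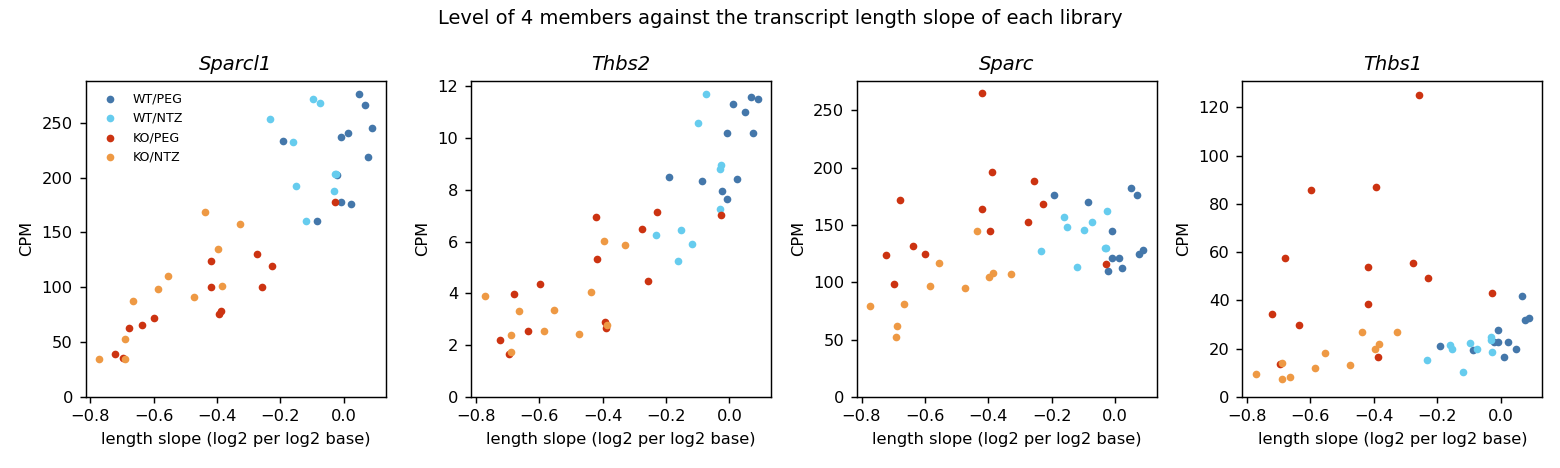
CPM of 4 members (y axis) against the transcript length slope of each library (x axis, log2 CPM per log2 base relative to WT/PEG), with a point for each of the 44 libraries. Sparcl1 and Thbs2 fall as the slope falls, whereas KO/PEG libraries lie above KO/NTZ libraries of like slope for Sparc and Thbs1 in most cases.

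Within groups, the deviations of every member from its group mean (log2 CPM) went up with the length slope, with Pearson's r of 0.77 for Sparcl1, 0.64 for Thbs2, 0.61 for Postn, 0.47 for Thbs1, 0.45 for Tnc, 0.44 for Fn1, 0.33 for Sparc and 0.27 for Spp1 over 44 libraries. These values are a description, since the slope is taken from the same libraries.

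Postn (chr3:54361109-54391037, plus strand) encodes periostin, an integrin ligand of fibroblasts under the epithelium. WT/PEG libraries had 38.4 to 134 CPM (median 65.4) and WT/NTZ libraries 39.6 to 96.3 CPM (median 78.2). KO/PEG libraries had 23.9 to 67.1 CPM (median 39.7) and KO/NTZ libraries 13.3 to 59.4 CPM (median 34.1). The groups overlapped, with 6 of 13 KO/PEG libraries below every WT/PEG library. KO/PEG was lower by a log2 difference of -0.69 ± 0.21 (SE, adjusted p = 0.0028, edgeR). This did not pass with only KO animals numbered below 100 (-0.38 ± 0.25, SE, adjusted p = 0.189, edgeR), and with the length slope as a covariate it was 0.22 ± 0.26 (SE, adjusted p = 0.544, edgeR). Between KO/NTZ and WT/NTZ it was -1.12 ± 0.23 (SE, adjusted p = 3.53e-05, edgeR), and -0.23 ± 0.26 (SE, adjusted p = 0.557, edgeR) with the slope. The most abundant Postn transcript (ENSMUST00000117373) held 63.1% ± 11.9 (SD, n = 11) of the count in WT/PEG and 62.9% ± 10.4 (SD, n = 13) in KO/PEG, a difference smaller than the spread (permutation test, two-sided, adjusted p = 0.954).

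Tnc (chr4:63959785-64047015, minus strand) encodes tenascin C, which appears in healing and in tumor stroma. Levels were 14.6 to 35.5 CPM (median 24.6) in WT/PEG libraries and 17.5 to 53.3 CPM (median 24.1) in WT/NTZ libraries. The KO/PEG libraries had 17.2 to 40.2 CPM (median 29.9), and the KO/NTZ libraries 15 to 38.3 CPM (median 23.3). All 4 groups overlapped. KO/PEG and WT/PEG differed by 0.20 ± 0.16 (SE, log2, adjusted p = 0.236, edgeR, 95% interval -0.10 to 0.51), and 11 of 13 KO/PEG libraries were above the WT/PEG median. With the length slope as a covariate it was 0.69 ± 0.22 (SE, adjusted p = 0.0119, edgeR). The estimated count was divided differently between transcripts, and the part of the length slope in this split was not tested. The form of 6833 bases (ENSMUST00000030056) held 72.8% ± 17.7 (SD, n = 11) in WT/PEG and 94.9% ± 8.14 (SD, n = 13) in KO/PEG (permutation test, two-sided, adjusted p = 0.00112), and the form of 7100 bases (ENSMUST00000107377) 22.3% ± 15.3 and 4.67% ± 7.39. In a fit over all transcripts, in which 53.5% of 30782 passed, the shorter form rose in KO/PEG by a log2 difference of 0.53 ± 0.16 (SE, adjusted p = 0.00506, edgeR).

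Spp1 (chr5:104435118-104441050, plus strand) encodes osteopontin, a ligand of CD44 and integrins secreted by macrophages and injured epithelium. It was the most variable member, with 0.96 to 41.2 CPM (median 9.99) in WT/PEG and 0.818 to 50.4 CPM (median 17.4) in WT/NTZ libraries. With PEG the KO libraries had 4.71 to 633 CPM (median 44.8), and with NTZ 4.16 to 110.6 CPM (median 27.5). Of the KO/PEG libraries 8 of 13 were above every WT/PEG library, with 633 CPM in replicate 5 and 283 CPM in replicate 13. KO/PEG was higher by a log2 difference of 3.04 ± 0.70 (SE, adjusted p = 0.000175, edgeR), and by 2.26 to 3.41 with any single library left out. Macrophage markers were higher in the same comparison, with 7 of 10 past the threshold, beside 37.5% of all genes higher. Their summed medians were 146 CPM in WT/PEG and 251 CPM in KO/PEG. KO/PEG replicate 5 had the highest macrophage sum of the KO/PEG libraries (398 CPM), whereas replicate 13 had 197 CPM. The part of macrophages in the Spp1 level was not tested. KO/NTZ differed from KO/PEG by -1.58 ± 0.65 (SE), with 7 of 11 libraries under the median of KO/PEG, and by -0.81 ± 0.59 (SE) without KO/PEG replicate 5. Against WT/NTZ it differed by 0.62 ± 0.70 (SE, adjusted p = 0.434, edgeR).

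**Figure D3:**
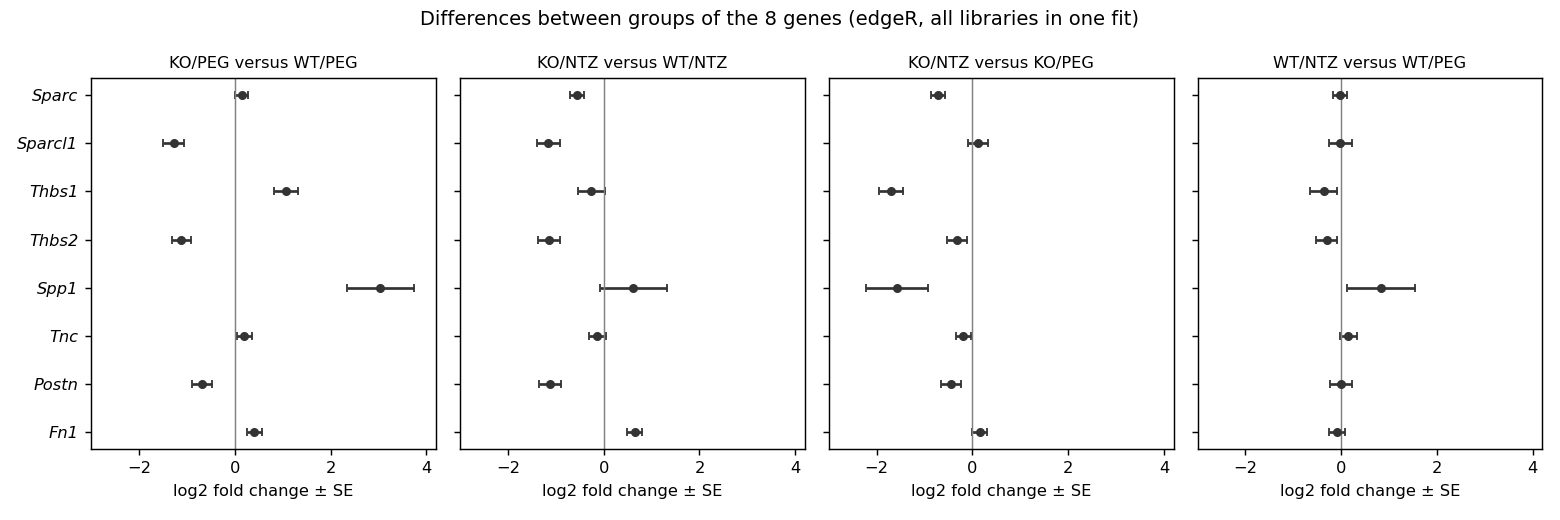
Log2 fold changes (x axis) of the 8 genes (y axis) in 4 comparisons, in a panel each, as points with the standard error as bars. Spp1 has the widest bars, Sparcl1, Thbs2 and Postn lie below 0 in both comparisons of KO with WT mice, and in WT mice given NTZ all lie within 0.84 of 0.

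Fn1 (chr1:71585520-71653200, minus strand) encodes fibronectin, the glycoprotein that links cells to collagen. The WT libraries had 46.9 to 84.3 CPM with PEG (median 65.2) and 41.5 to 82.5 CPM with NTZ (median 60.1). The KO libraries had 52.6 to 147.4 CPM with PEG (median 80.9) and 65.6 to 154 CPM with NTZ (median 85.9). The groups overlapped, and the sum was higher in KO/PEG than in WT/PEG by 0.41 ± 0.15 on the log2 scale (SE, adjusted p = 0.0119, edgeR) and in KO/NTZ than in WT/NTZ by 0.65 ± 0.16 (SE, adjusted p = 0.000472, edgeR). Within this sum, the estimated counts assigned to its transcripts moved in opposite directions.

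Most of the Fn1 count was assigned to a transcript annotated as a retained-intron form (ENSMUST00000185408, 4022 bases, chr1:71585526-71609567), which covers the 3′ part of the gene and keeps an intron of 626 bases (chr1:71597748-71598373). The boundaries of that intron are shown because the calls on Fn1 turn on this form, with the exon in lower case and the retained intron in capitals, in the orientation of the gene. The first window is chr1:71598344-71598403 and the second chr1:71597718-71597777 of GRCm38, minus strand.
Fn1 intron start: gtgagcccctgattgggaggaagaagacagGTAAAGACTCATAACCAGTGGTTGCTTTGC
Fn1 intron end: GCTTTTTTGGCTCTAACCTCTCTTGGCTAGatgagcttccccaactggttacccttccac
This form held 53.1% ± 9.1 (SD, n = 11) of the Fn1 count in WT/PEG, 67.2% ± 10.8 (SD, n = 9) in WT/NTZ, 89.1% ± 10 (SD, n = 13) in KO/PEG and 95.6% ± 2.43 (SD, n = 11) in KO/NTZ. The difference between KO/PEG and WT/PEG was 36 percentage points (permutation test, two-sided, adjusted p = 8e-05). That between WT/NTZ and WT/PEG was 14.1 percentage points (exact permutation test, two-sided, p = 0.00699, adjusted p = 0.014), the one comparison of a member between these groups that passed a test. The length slope also differed, with a median of -0.098 in WT/NTZ and 0.012 in WT/PEG. Single WT/NTZ libraries went both ways. Replicate 4, with the lowest slope of the WT libraries (-0.232), had the lowest full-length Fn1 of them (8.31 CPM). Replicate 2, with a slope of -0.029, had 8.87 CPM, and replicate 8, with -0.031, had 29.3 CPM. The part of the slope in the share was not tested.

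The 7 full-length coding transcripts of Fn1 together had 10.5 to 43.5 CPM (median 25.8) in WT/PEG and 8.31 to 29.3 CPM (median 15.4) in WT/NTZ libraries. They had 0.781 to 40.1 CPM (median 3.63) in KO/PEG and 0.62 to 8.51 CPM (median 2.89) in KO/NTZ libraries. The retained-intron form had medians of 33.4, 39, 73.1 and 84.4 CPM in the same order. For this form all 24 KO libraries lay above the WT/PEG maximum of 46.6 CPM, while the WT/NTZ maximum of 60.5 CPM overlapped KO/PEG. With protein-coding transcripts alone, in a fit in which 72.3% of 13973 genes passed in KO/PEG versus WT/PEG and 71.1% in KO/NTZ versus WT/NTZ, Fn1 was lower, by log2 differences of -1.54 ± 0.42 (SE, adjusted p = 0.00113, edgeR) and -2.25 ± 0.48 (SE, adjusted p = 7.05e-05, edgeR). The retained-intron form alone was higher by 1.10 ± 0.14 in KO/PEG (SE, adjusted p = 3.58e-08, edgeR) and by 1.10 ± 0.16 in KO/NTZ (SE, adjusted p = 3.02e-07, edgeR, in a fit in which 56.8% of transcripts passed). The direction of Fn1 with genotype thus depended on which transcripts were summed. The counts are estimates per transcript and do not show how many reads lay within the intron. Neither of these fits held the length slope as a covariate.

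The full-length count moved with the length slope. KO/PEG replicate 9, with a slope of -0.028, had 40.1 CPM of full-length Fn1, above the WT/PEG median, and KO/PEG replicate 4, with a slope of -0.636, had 0.781 CPM. Retained-intron transcripts of all genes together made up between 1.26% and 1.95% of counts in WT libraries and between 2.3% and 4.05% in KO libraries, without overlap. Their part in the Fn1 split was not tested. Within the full-length count, 85.1% of 3476 estimated reads pooled over WT/PEG and 92.9% of 2028 pooled over KO/PEG were assigned to the 4 transcripts with the exon of 270 bases that encodes the extra domain A (chr1:71603660-71603929), a cassette typical of cellular rather than plasma fibronectin. The estimates come from few reads in most KO libraries, down to 9.46 full-length counts in KO/PEG, and are given without a test.

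**Figure D4:**
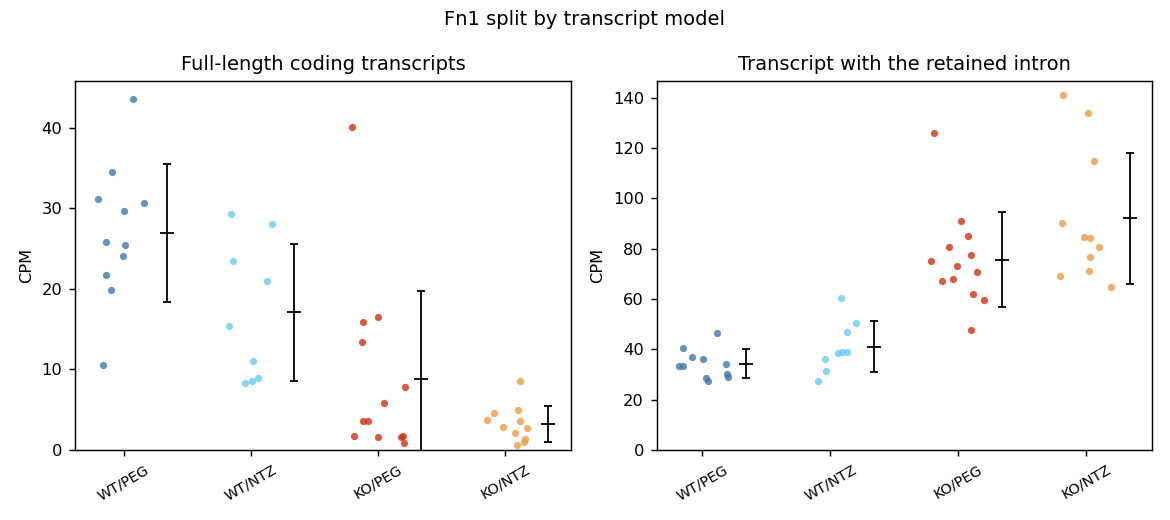
CPM of the full-length coding transcripts of Fn1 (left) and of its retained-intron form (right) in each library, with mean ± SD as bars. The full-length forms are below 10 CPM in all KO/NTZ libraries and reach 40.1 CPM in a single KO/PEG library, whereas the retained-intron form is above 46.6 CPM in all KO libraries.

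**Figure D5:**
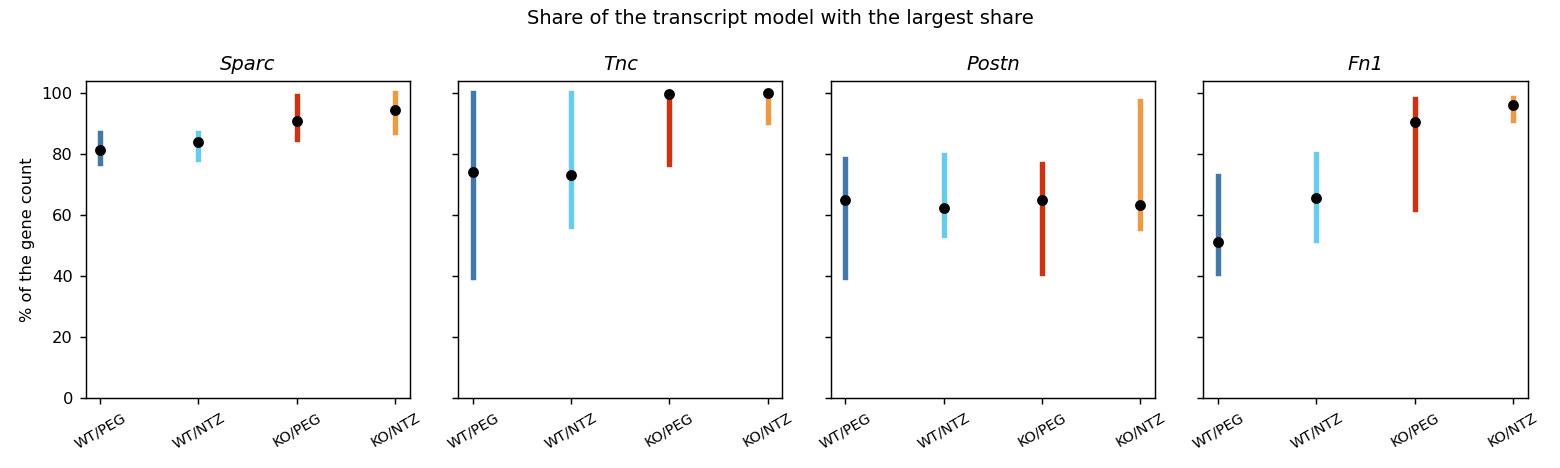
Share of the gene's count (y axis, %) held by the transcript model with the largest share, for the 4 members with more than 1 transcript above 5% of the count. Bars run from the lowest to the highest library and points are medians, which are higher in KO than in WT groups for Sparc, Tnc and Fn1 and between 62.4% and 65% in the 4 groups for Postn.

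None of the 8 summed members passed in WT/NTZ versus WT/PEG, which is near the background of 1.03% of all genes. None had an unadjusted p under 0.05 with edgeR, DESeq2 or limma-trend. The log2 differences were -0.02 ± 0.15 (SE) for Sparc, -0.02 ± 0.24 for Sparcl1, -0.37 ± 0.28 for Thbs1, -0.30 ± 0.22 for Thbs2, 0.84 ± 0.71 for Spp1, 0.15 ± 0.17 for Tnc, -0.01 ± 0.23 for Postn and -0.09 ± 0.16 for Fn1. The 95% interval was -0.31 to 0.27 for Sparc, -0.92 to 0.17 for Thbs1, -0.73 to 0.14 for Thbs2 and -0.54 to 2.23 for Spp1. Changes within these limits may have been missed. The highest Tnc value among the WT/NTZ libraries, 53.3 CPM in replicate 9, belongs to the WT library with the lowest Atp4b (2139 CPM), and to the largest macrophage sum (489 CPM). Without it the log2 difference of Tnc was -0.03.

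The NTZ effect in KO mice minus that in WT mice contains the comparison that chose Sparc and Thbs1, and is given without a test. It was -0.71 ± 0.20 (SE) for Sparc, -1.32 ± 0.37 for Thbs1, -2.42 ± 0.96 for Spp1, -0.43 ± 0.31 for Postn, -0.34 ± 0.23 for Tnc (-0.17 ± 0.21 without WT/NTZ replicate 9), -0.03 ± 0.30 for Thbs2, 0.12 ± 0.32 for Sparcl1 and 0.24 ± 0.22 for Fn1. In the edgeR fit 0.96% of all genes passed for this difference, and no count of members is read against it. For KO/NTZ against KO/PEG 5.56% of all genes passed, and the members among them were Sparc and Thbs1, the genes picked for it. Between KO/NTZ and WT/NTZ 5 of 8 members passed, beside 72.4% of all genes. Sparc, Sparcl1, Thbs2 and Postn were lower and Fn1 was higher as a sum, with Sparc counted here as a description only. With the length slope as a covariate, where 25.9% of all genes passed, Fn1 alone passed, with a log2 difference of 1.14 ± 0.21 (SE, adjusted p = 4.48e-05, edgeR).

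Of 29 other matricellular genes tested, of 34 listed, 10 were higher and 12 lower in KO/PEG versus WT/PEG, near the background of 74.7% of all genes, with a median log2 difference of -0.24 against 0 over all genes tested. The smallest p among the higher genes belonged to Cthrc1, a collagen-triple-helix protein of activated fibroblasts, from 0.463 ± 0.138 CPM (SD, n = 11) to 3.47 ± 2.07 CPM (SD, n = 13), and Mfge8, which bridges integrins and dying cells, from 148 ± 29.5 to 475 ± 243 CPM. Mfge8 did not pass with the length slope as a covariate (adjusted p = 0.067, edgeR). Among the lower genes it belonged to Tnn (tenascin N), from 67.5 ± 8.47 to 15 ± 6.55 CPM, and Spock3, a proteoglycan of the SPARC family, from 7.04 ± 3.08 to 0.517 ± 0.282 CPM. Cthrc1 in WT/PEG and Spock3 in KO/PEG lay near the smallest signal of 3 counts. That signal was 0.156 to 0.381 CPM in WT/PEG and 0.137 to 0.478 CPM in KO/PEG libraries. With the length slope as a covariate, 6 of the 29 genes were higher and 8 lower in KO/PEG, beside 36.2% of all genes called.

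Under NTZ in KO mice, 5 of the 29 were higher and 4 lower, beside 5.56% of all genes called in either direction. Vtn (vitronectin), an integrin ligand, fell from 41.9 ± 17.8 CPM (SD, n = 13) to 15.8 ± 4.74 CPM (SD, n = 11), a log2 difference of -1.40 ± 0.20 (SE, adjusted p = 1.75e-05, edgeR). Ccn3, a member of the CCN family, fell from 18.5 ± 9.36 to 8.05 ± 3.94 CPM. Fbln1 (fibulin 1) rose from 33.3 ± 8.25 to 49.5 ± 8.36 CPM and Tnxb (tenascin XB) from 9.69 ± 2.13 to 15.8 ± 4.24 CPM. Tnxb did not pass with only KO animals numbered below 100 (adjusted p = 0.0678, edgeR).

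Structural matrix genes were mostly lower or did not pass in KO/PEG versus WT/PEG, with 2 higher and 13 lower of 28, beside 37.5% of all genes higher and 37.2% lower. Col18a1, a basement membrane collagen, rose from 32.9 ± 6.85 CPM (SD, n = 11) to 93 ± 25.1 CPM (SD, n = 13) and Lox, which crosslinks collagen, from 7.69 ± 1.63 to 16.5 ± 10.4 CPM. Lama4, a laminin chain of vessels, fell from 23.1 ± 3.45 to 13.1 ± 2.6 CPM and Fbn1 (fibrillin 1) from 20 ± 4.12 to 9.4 ± 2.66 CPM, the latter not past the threshold with the length slope as a covariate (adjusted p = 0.124, edgeR). With that covariate the list had 7 higher and 4 lower, beside 36.2% of all genes called. Under NTZ in KO mice none of the 28 was higher and 3 were lower (5.56% of all genes were called), with a median log2 difference of -0.25. These were Col1a1, from 97.4 ± 31.2 CPM (SD, n = 13) to 63.2 ± 14 CPM (SD, n = 11), Col4a1, from 122 ± 18.6 to 90.8 ± 18.4 CPM, and Col1a2, which is outside the rule for named genes, with a log2 difference of -0.61 ± 0.16 (SE, adjusted p = 0.0131, edgeR). With only KO animals numbered below 100, 9 were lower and none higher, beside 9.29% of all genes called. Fibroblast markers, which share Col1a1, Col1a2 and Col3a1 with this list, had summed medians of 1144 CPM in KO/PEG and 1306 CPM in KO/NTZ, a sum led by Gsn, with 1 of 10 higher and 2 lower.

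Of 19 receptor genes for these ligands, 8 were higher and 9 lower in KO/PEG versus WT/PEG, where 74.7% of all genes were called. With the length slope as a covariate, 4 were higher and 3 lower, beside 36.2% of all genes called. Cd36, the thrombospondin receptor that also takes up fatty acids, fell from 207 ± 31.5 CPM (SD, n = 11) to 30 ± 14.4 CPM (SD, n = 13), a log2 difference of -2.78 ± 0.23 (SE, adjusted p = 1.61e-13, edgeR). Itga9, an integrin chain that binds tenascin C and osteopontin, fell from 29 ± 4.72 to 16 ± 3.31 CPM. Cd47, the other thrombospondin receptor, rose from 55.7 ± 6.16 to 81 ± 15.4 CPM and Calr (calreticulin) from 709 ± 130 to 1234 ± 359 CPM, and neither passed with the length slope as a covariate (adjusted p = 0.484 and 0.699, edgeR). Under NTZ in KO mice 1 receptor gene was higher and 1 lower, beside 5.56% of all genes called. Itgb3, an integrin chain, rose from 10.1 ± 2.21 CPM (SD, n = 13) to 14.6 ± 3.46 CPM (SD, n = 11) and Stab1, a scavenger receptor of SPARC, fell from 21.4 ± 4.69 to 15.8 ± 2.27 CPM. Itgb3 did not pass with only KO animals numbered below 100 (adjusted p = 0.0742, edgeR).

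Among 22 genes of the TGF-beta pathway, 5 were higher and 14 lower in KO/PEG versus WT/PEG, beside 74.7% of all genes called, and 5 higher and 3 lower with the length slope as a covariate, beside 36.2% of all genes. Tgfb1, the ligand that thrombospondin 1 can activate, rose from 5.37 ± 0.924 CPM (SD, n = 11) to 13.9 ± 3.74 CPM (SD, n = 13), and Bambi, a decoy receptor, from 1.78 ± 0.429 to 4.43 ± 1.4 CPM. Tgfbr3, a coreceptor, fell from 28.6 ± 4.85 to 13.8 ± 3.23 CPM and Skil, a repressor of SMADs, from 58.3 ± 9.2 to 24.8 ± 9.89 CPM, the latter not past the threshold with the slope (adjusted p = 0.547, edgeR). With NTZ in KO mice none was higher and 4 were lower (5.56% of all genes were called), among them Tgif1, a corepressor, from 28.1 ± 3.12 CPM (SD, n = 13) to 22 ± 2.53 CPM (SD, n = 11). In WT/NTZ versus WT/PEG none of the 98 genes of the 4 lists passed, and none had an unadjusted p under 0.05 with edgeR.

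The genes whose deviations from the group means followed each member most closely over the 44 libraries differed between members. They were searched among 10858 genes with a mean of at least 5 CPM and are a description only, since the libraries share their depth and RNA quality. For Sparc they were the matrix genes Fbln5 (r = 0.83) and Col3a1 (0.82) and the scavenger receptor gene Colec12 (0.82), and for Postn Col5a2 (0.88), Foxf2 (0.87) and Lum (0.87). For Sparcl1 they were Chrdl1 (0.96), Cav1 (0.95) and Chrm2 (0.93), and for Thbs2 the neuropeptide gene Vip (0.81), Ptn (0.81) and Rims1 (0.80). Thbs1 was followed by Hspa4l (0.78), the early-response gene Nr4a2 (0.76) and Ptp4a1 (0.74), and not by the neighbours of Sparc. Spp1 was followed by Sowahc, Bag2 and B3galt5 (each 0.75), Tnc by Pfkp (0.72), Piezo1 (0.71) and its receptor chain Itga9 (0.70), and Fn1 by Gprc5b (0.77), Actn1 (0.74) and Mylip (0.74). Between members the highest value was 0.77, between Sparc and Postn, and Sparc and Thbs1 had 0.40.

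Marker genes of other cell types were summed to describe what the bulk samples held. Their counts in KO/PEG versus WT/PEG stand beside 37.5% of all genes higher and 37.2% lower. No marker list was counted in the fit with the length slope as a covariate. Between KO/PEG and WT/PEG, no fibroblast marker rose and 5 of 10 fell, 2 of 7 pericyte markers rose and 4 fell, 7 of 12 endothelial markers rose and 3 fell, and all 3 tested of 6 platelet markers rose. Parietal cell genes fell in 6 of 8, among them Atp4b, which KO mice lack. Chief cell genes fell in 3 of 4 tested, with 1 chief cell gene higher. Of the surface mucous cell genes 1 of 5 rose and 3 fell, and 1 of 8 squamous forestomach genes rose. The mesothelial list, of which 3 of 5 genes were tested and 2 rose, was mostly Krt19, an epithelial keratin. NTZ in KO mice, where 5.56% of all genes were called, went with 1 higher pericyte marker and 1 higher platelet marker. It also went with 1 lower macrophage marker, 1 lower mesothelial marker and 1 lower parietal cell gene, and with none among chief, surface mucous and squamous genes. The squamous genes had a summed median of 166 CPM (33.6 to 521) in WT/PEG and 866 CPM (33.6 to 3406) in WT/NTZ libraries. Their median log2 difference between these groups was 2.45, and none passed, beside 1.03% of all genes called. In KO/NTZ versus WT/NTZ 1 squamous gene was higher and 4 lower, beside 72.4% of all genes called. The part of all these cell types in the levels of the 8 members was not tested.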

How the data were processed

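Libraries were made with a stranded mRNA kit and sequenced as single reads. The authors quantified transcripts with kallisto 0.42.4 on GRCm38, and the deposited values are estimated counts of 94080 transcripts in 44 libraries, not normalized. The annotation release is not given in the sources used here. Transcripts were paired with gene names through GENCODE vM21 (92372 of 94080, the rest holding 0.329% to 1.305% of counts), summed per gene and rounded to whole counts.

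Genes were filtered with filterByExpr, scaled by TMM and tested with edgeR 4.0.16 (quasi-likelihood, all 44 libraries, no covariate, R 4.3.3), with p-values adjusted over 14901 genes. CPM values are TMM-scaled. Transcript shares were compared by permutation (100000 resamples, or exact). On simulated counts for KO/PEG versus WT/PEG (14737 genes, 200 changed), 80% of 2-fold and 96% of 4-fold changes were recovered, and 11 of 187 calls were false. In the deposited counts 74.7% of 14901 genes were called in this comparison. Recovery and false calls with so large a share of genes differing were not tested.

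The members and gene lists were chosen with earlier results of these data known. Named genes were the members, Atp4b, up to 2 higher and 2 lower genes with the smallest p per list and comparison, and the 3 genes following each member most closely. A gene that this rule names is not reported here. Alternatives were other size factors, no filter, DESeq2 1.42.0, limma-trend (limma 3.58.1), fits of the compared groups alone, single transcripts, subsets by animal number and each library left out. The length slope as a covariate, KO libraries with a slope above -0.5 and protein-coding transcripts alone were added after seeing the data.

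Replicate numbers follow the order of deposit. A pair of WT/PEG libraries shares the animal number 172, with numbered suffixes in the labels. Of 55 WT/PEG pairs, 44 were closer to each other, and both libraries were kept. This does not show that they come from different mice. Summing the pair turned no direction and moved no member past or below the threshold. Number 110 stands on 1 KO/PEG and 1 KO/NTZ library. The deposited KO/PEG libraries outnumber the KO/PEG mice that the study's methods describe, so p-values may in part measure spread between libraries rather than mice.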

Additional observations from a re-analysis of the deposited data

Results flagged for a closer look

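For 2 of the 29 other matricellular genes, the difference with NTZ was unequal in KO and WT mice by the interaction term of the edgeR fit. For this term 0.96% of all genes passed. With only KO animals numbered below 100, none of the 29 genes passed for it. For Fbln1 (fibulin 1) the KO effect minus the WT effect was 0.78 ± 0.16 on the log2 scale (SE, adjusted p = 0.0103). WT/PEG libraries had 56.2 to 83.5 CPM (median 72.3), WT/NTZ 51.5 to 66.8 (62), KO/PEG 17.7 to 50.1 (31.6) and KO/NTZ 37.4 to 64.7 (47.3), and the WT effect alone was -0.20 ± 0.11 (SE, adjusted p = 0.771). For Vtn (vitronectin) it was -1.25 ± 0.30 (SE, adjusted p = 0.0255), with 11.2 to 30.8 CPM (median 18.8) in WT/PEG, 9.49 to 25.4 (18.8) in WT/NTZ, 21.1 to 66.7 (34.1) in KO/PEG and 9.2 to 22.8 (17.4) in KO/NTZ. The WT effect of Vtn was -0.15 ± 0.22 (SE, adjusted p = 0.949). The KO/NTZ median of Fbln1 lay between those of KO/PEG and the WT groups, and that of Vtn just under those of the WT groups.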

How the results depend on the processing

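The counts of members past the threshold (6 in KO/PEG versus WT/PEG, 2 in KO/NTZ versus KO/PEG, 0 in WT/NTZ versus WT/PEG, 5 in KO/NTZ versus WT/NTZ) were the same with each of the 44 libraries left out. Counts that moved by over 1.5 times under other settings were those of KO/NTZ versus WT/NTZ with the length slope as a covariate, where 1 member passed, and the difference of the NTZ effects, where 0 members passed, against 1 with DESeq2 size factors, 2 with DESeq2, 2 with the slope, and 0 to 2 with a library left out. Counts went above 0 there without KO/NTZ replicate 3 or 10 and without KO/PEG replicate 9, 10 or 12. The cause was not tested. The counts for the difference of the NTZ effects and for NTZ in KO mice rest on values by which Sparc and Thbs1 were chosen, and are a description only. The same holds for Thbs1 within the 6 of KO/PEG versus WT/PEG and for Sparc within the 5 of KO/NTZ versus WT/NTZ. Directions turned where a difference was near 0, for Fn1 with the transcripts summed, and with the length slope as a covariate. Outside the fits with a library left out, 26 directions turned, 7 of them with the slope, the most under any setting. Among these was Postn in KO/PEG versus WT/PEG, which had passed the threshold as lower.

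With protein-coding transcripts alone, Fn1 turned to -1.54 (KO/PEG versus WT/PEG), -1.36 (KO/NTZ versus KO/PEG), -2.25 (KO/NTZ versus WT/NTZ) and -0.70 (difference of the NTZ effects). With the length slope, Postn turned to 0.22 in KO/PEG versus WT/PEG, and Thbs1 to 0.57 and Tnc to 0.34 in KO/NTZ versus WT/NTZ. Without KO libraries of a slope at or below -0.5, Thbs1 turned to 0.15 in that comparison, and for single transcripts Tnc turned to 0.30. With only KO animals numbered below 100, Sparcl1 turned to -0.20 and Fn1 to -0.09 in KO/NTZ versus KO/PEG, and Sparcl1 to -0.19 in the difference of the NTZ effects, where limma-trend gave 0.04 for Thbs2.

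In WT/NTZ versus WT/PEG, Postn turned to 0.01 with DESeq2 size factors, DESeq2 or the slope subset, to 0.02 with limma-trend or the compared groups alone, and to 0.22 with the slope. Sparc turned to 0.01 with the compared groups alone, 0.02 for single transcripts and 0.05 with the slope, Sparcl1 to 0.02 with the compared groups alone and 0.29 with the slope, and Fn1 to 0.26 for single transcripts and 0.04 with the slope. With a library left out, this comparison gave -0.05 to 0.03 for Sparc, -0.05 to 0.04 for Sparcl1, -0.03 to 0.22 for Tnc and -0.07 to 0.11 for Postn. Tnc in KO/NTZ versus WT/NTZ gave -0.21 to 0.03, and Thbs2 in the difference of the NTZ effects -0.15 to 0.05. For Tnc the turns came without WT/NTZ replicate 9.

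No paired analysis was possible because the labels give no replicate numbers, and KO/PEG and KO/NTZ share 1 animal number only (110). Depth limits mainly Thbs2, Spp1 in WT mice and the full-length Fn1 count in KO mice, and among the other matricellular genes named, Cthrc1 in WT mice and Spock3 in KO mice.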
